A study of Homo sapiens with 4 samples.

Results

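The intervals of human chromosome 7 in a genome-wide list of GATA4-occupied places are described here. They were all entries of the list that name chromosome 7, which gave 1351 of 21308 (6.34%). Of these, 455 started before 58 Mb and were taken as the short arm, and 880 started at or after 61 Mb and were taken as the long arm. The remaining 16 lay between those limits, from 58000321 to 58053446, and belonged to neither arm by that rule.

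The list came from 4 CUT&RUN libraries of PaTu8988S, an established line of pancreatic adenocarcinoma cells, all made with the anti-GATA4 antibody MAB2606. CUT&RUN cuts and releases the DNA around an antibody-bound protein in permeabilised cells, and the released fragments are sequenced. The 4 libraries form 1 group with no treatment or genotype contrast, and the list holds the peaks they had in common, so neither a value per library nor a spread between libraries can be given. An untargeted-antibody control was not analysed here, the read depth is unknown, and an interval carries only a chromosome, a start and an end in build hg19.

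GATA4 is a zinc-finger transcription factor that binds DNA at short sites containing the letters GATA and acts early in the development of endoderm, heart and stomach. In pancreatic ductal adenocarcinoma, GATA4 and its relative GATA6 are linked to the classical, more epithelial expression programme. Chromosome 7 is known for the HOXA cluster of homeobox genes, the receptor gene EGFR and the classical-subtype marker AGR2 on its short arm. Its long arm carries the receptor gene MET, the chloride channel gene CFTR and the digestive enzyme genes PRSS1 and CPA1. An hg19 gene annotation and sequence were not used here, so no interval was assigned to any of these genes and no sequence is shown.

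The long arm carried somewhat more intervals per Mb than the short arm, and widths were close. The short arm held 455 intervals from 20127 to 58000213, or 7.85 per Mb, and the long arm held 880 from 61054581 to 159009721, or 8.98 per Mb. The long arm was thus 1.14 times as dense. In windows of 1 Mb the short arm held 7.84 ± 9.72 intervals (mean and SD, 58 windows, median 4). The long arm held 8.97 ± 11.8 (mean and SD, 98 full windows, median 5). Counts varied widely from window to window within both arms. No test was made of the difference between the arms, because the pooled list has no replicate values.

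Widths, which are end minus start in bp, were also close between the arms. The median width was 545 bp on the short arm (quartiles 394 and 775.5) and 557.5 bp on the long arm (quartiles 401 and 785). The middle 90% of widths ran from 268 to 1145 bp on the short arm and from 259 to 1421 bp on the long arm. Intervals of 1 kb or wider made up 45 of 455 (9.89%) on the short arm and 129 of 880 (14.7%) on the long arm. The share over all 23 chromosomes examined, the 22 autosomes and X, was 18.2%, above both arms. Intervals covered 280 kb (0.483%) of the short arm and 582 kb (0.594%) of the long arm.

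Neighbours stood closer together on the long arm. The median distance to the next interval was 40.7 kb on the short arm (quartiles 9.91 and 126 kb) and 27.3 kb on the long arm (quartiles 4.84 and 99.7 kb). Gaps of 100 bp or less were 13 of 454 on the short arm (2.86%) and 26 of 879 on the long arm (2.96%), against 4.66% over all chromosomes. These near-equal shares came largely from ground beside the centromere. Further than 1 Mb from the empty stretch there, such gaps numbered 1 for 392 short-arm intervals and 12 for 775 long-arm intervals.

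**Figure D1:**
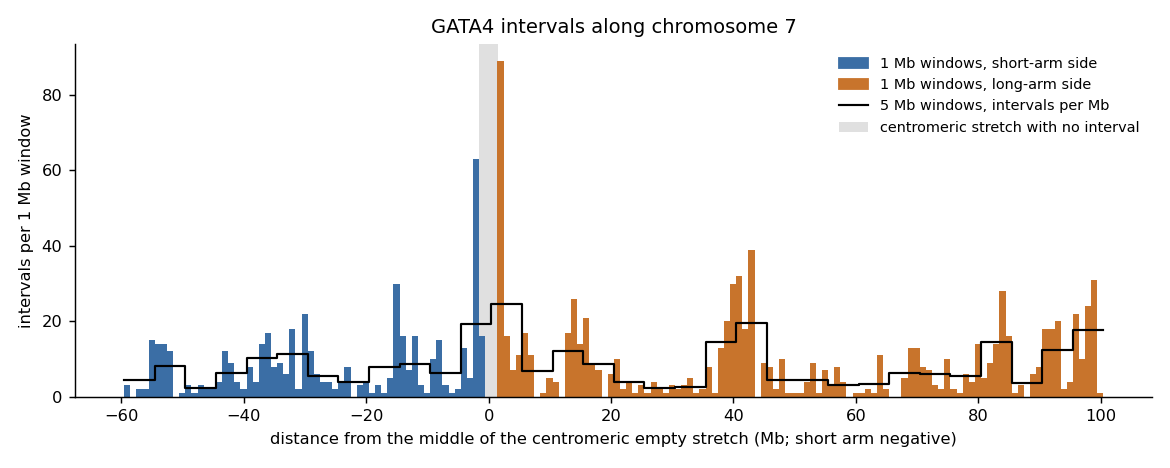
Bars give the number of intervals starting in each 1 Mb window of chromosome 7, the black line gives intervals per Mb in 5 Mb windows, and the horizontal axis is the distance in Mb from the middle of the centromeric stretch without intervals (grey), short arm to the left. The tallest bars, 63 and 89, stand on either side of that stretch, and the bar of 16 drawn across its left edge comes from intervals in the first 53 kb of its window.

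The fullest ground on the chromosome lay on both sides of its longest empty stretch. That stretch ran from 58053446 to 61054581 (3.00 Mb) and is where hg19 represents the centromere by undetermined bases, in which nothing can be mapped. The 1 Mb before it held 79 intervals and the 1 Mb after it held 105. Together these 184 intervals were 13.6% of the chromosome's total on 1.28% of its ground, the empty stretch left out.

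The sides differed in layout. On the short-arm side 59 of the 79 intervals lay within 200 kb of the edge, and 70 within 500 kb. On the long-arm side only 19 of the 105 lay within 200 kb and 28 within 500 kb, so most of that side's intervals stood between 500 kb and 1 Mb from the edge. Both sides then went nearly empty. From 1 to 2 Mb the total rose from 79 to 84 on the short-arm side and from 105 to 107 on the long-arm side.

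**Figure D2:**
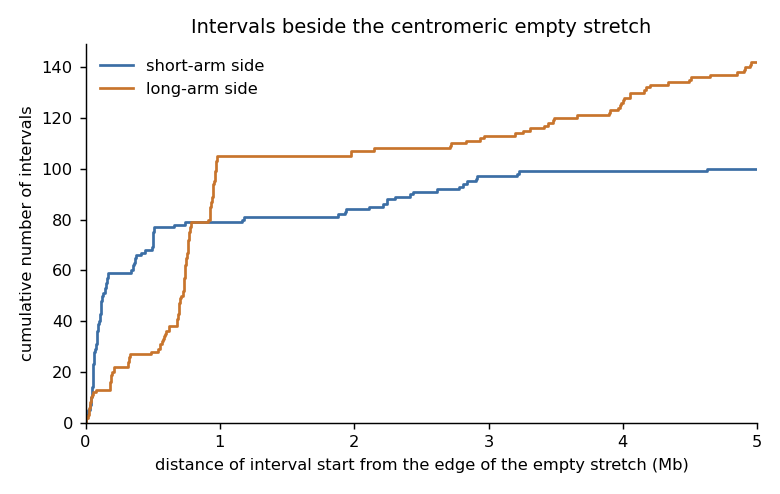
The lines give the running number of intervals (vertical axis) against distance in Mb from the edge of the centromeric empty stretch, 1 line per side. The short-arm line climbs at once to 59 by 0.2 Mb and the long-arm line climbs late, from 28 at 0.5 Mb to 105 at 1 Mb, after which both are nearly flat to 2 Mb.

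Intervals beside the centromeric stretch included both the narrowest and the widest of the chromosome. Their median width was 464 bp (quartiles 304 and 774, n = 184), against 558 bp (quartiles 412 and 777) for the 1167 intervals elsewhere. Of the 24 chromosome 7 intervals under 200 bp, 22 lay there, 8 on the short-arm side and 14 on the long-arm side. That is 11.96% of the intervals beside the stretch and 0.171% of those elsewhere, while 1.59% of intervals over all chromosomes were that narrow. The narrowest interval was 73 bp there and 185 bp elsewhere. The share of 1 kb or wider was also higher beside the stretch, at 30 of 184 (16.3%), than elsewhere, at 144 of 1167 (12.3%). Most of those 30 lay on the long-arm side, and the share over all chromosomes was 18.2%. Of the chromosome's 41 gaps of 100 bp or less, 28 followed an interval beside the stretch. How far repeated sequence, mapping or the peak caller's rules set these widths was not tested.

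**Figure D3:**
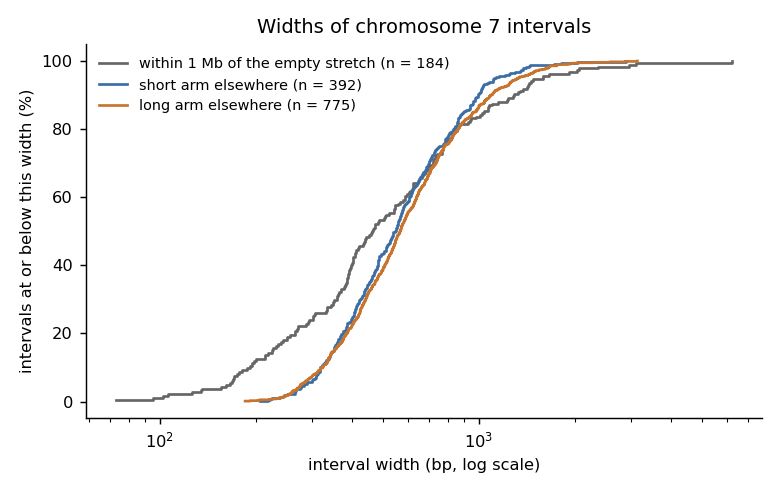
Each line gives the percentage of intervals (vertical axis) at or below a width in bp (log scale), for the 184 intervals within 1 Mb of the centromeric empty stretch, the 392 others before it and the 775 others after it. The grey line runs left of the others below 500 bp and right of them above 1 kb, while the lines for the arms stay close together, with medians of 547.5 and 567 bp.

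Leaving out these 184 intervals did not bring the arms closer. The short arm then held 392 intervals, or 6.89 per Mb, and the long arm 775, or 8.07 per Mb, a ratio of 1.17. With 5 Mb left out on either side of the stretch instead, the ratio was 1.12, slightly below the 1.14 of the whole arms. Per 1 Mb window, counts were 6.88 ± 6.39 on the short arm without the window from 57 to 58 Mb (mean and SD, 57 windows) and 8.14 ± 8.49 on the long arm without that from 61 to 62 Mb (mean and SD, 97 windows).

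Across the arms the 1 Mb windows fell into broad full and sparse parts. Of 156 full windows on the arms, 49 held 10 intervals or more (31.4%), 17 of 58 on the short arm and 32 of 98 on the long arm. Over all chromosomes 17.3% of windows were that full. At the low end 50 windows (32.1%) held 2 or fewer, against 50.4% over all chromosomes, and 11 of the 50 held none. Chromosome 7 thus had a larger share of full windows and a smaller share of sparse ones than the list as a whole. It is itself part of that whole, and windows next to each other are not independent.

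The 10 fullest windows were mostly on the long arm, which also had 98 of the 156 full windows. After the windows from 61 to 62 Mb (89 intervals) and 57 to 58 Mb (63), they were those from 102 to 103 Mb (39), 100 to 101 Mb (32), 158 to 159 Mb (31) and 44 to 45 Mb (30). The last 4 were those from 99 to 100 Mb (30), 143 to 144 Mb (28), 73 to 74 Mb (26) and 157 to 158 Mb (24). Only the windows at 44 and 57 Mb belong to the short arm.

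Runs of at least 3 neighbouring windows with 10 or more intervals each were found in 7 places. Of these, 1 was on the short arm (58 windows) and 6 were on the long arm (98 windows). The 7 runs spanned 27 Mb and held 525 intervals, which is 38.9% of the chromosome's total. The short-arm run, from 4 to 8 Mb, held 55 intervals in 4 windows of 12 to 15 each. The longest run lay on the long arm from 97 to 103 Mb, where 6 windows held 13 to 39 each and 152 together, or 25.3 per Mb. The run from 72 to 76 Mb held 78, or 19.5 per Mb, and that from 155 to 159 Mb held 87, or 21.75 per Mb. Those from 64 to 67, 142 to 145 and 150 to 153 Mb held 39, 58 and 56.

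Most intervals of these runs were in no cluster, though several runs were more clustered than the arms away from the centromere. Intervals were linked when no further apart than just over 12 kb, and linked groups of 3 or more were counted as clusters. This placed 52 of the 152 intervals from 97 to 103 Mb in clusters. From 4 to 8 Mb only 5 of 55 were clustered, from 72 to 76 Mb 15 of 78, and from 155 to 159 Mb 28 of 87. The run from 142 to 145 Mb was the exception, with 37 of 58 in clusters. From 150 to 153 Mb it was 20 of 56, and from 64 to 67 Mb 3 of 39. For comparison, 221 of the 1167 intervals away from the centromeric stretch (18.9%) were clustered, and 45.1% over all chromosomes. The runs from 97 to 103, 142 to 145, 150 to 153 and 155 to 159 Mb lay above that 18.9%. The run from 72 to 76 Mb was close to it, and those from 4 to 8 and 64 to 67 Mb lay below. By arm, that share was 10.2% on the short arm and 23.4% on the long arm. The runs above 18.9% also lay above 23.4%. Against its own arm the run from 4 to 8 Mb was close, and that from 72 to 76 Mb lay below. Median widths in the runs lay between 534 and 641 bp.

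Sparse runs, at least 3 neighbouring windows with 2 intervals or fewer each, were 4 in number and held 14 intervals in 14 Mb. They ran from 1 to 4 Mb on the short arm, and from 108 to 111, 118 to 123 and 124 to 127 Mb on the long arm. None of their intervals was in a cluster of 3 or more, which the rule nearly fixes. With at most 2 intervals per window, such a cluster could only lie across a window edge.

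In 5 Mb windows the chromosome held between 11 and 123 intervals, with a median of 31 over 32 windows. The largest steps between neighbours were at 65 Mb, from 123 intervals down to 34, and at 105 Mb, from 98 down to 22. Next came 55 Mb, from 31 up to 97, then 95 Mb, from 13 up to 72, and 145 Mb, from 72 down to 18. The steps at 55 and 65 Mb take in the ground beside the centromeric stretch, whereas those at 95, 105 and 145 Mb lie well away from it. Away from the 55 Mb boundary the largest step of the short arm was at 10 Mb, from 41 down to 11. The SD of counts over 5 Mb windows was 13.9 on the short arm up to 55 Mb (mean 34, 11 windows) and 25.2 on the long arm from 65 to 155 Mb (mean 37.2, 18 windows).

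The steps depended on where the windows began. With 5 Mb windows starting at 2.5 Mb, the rise near 97.5 Mb was from 15 to 146 and the fall at 102.5 Mb from 146 to 25, both larger than above. The fall near 145 Mb was not seen, as counts went from 43 to 56 to 68 between 137.5 and 152.5 Mb. The largest step of the short arm away from the centromere was then at 42.5 Mb, from 11 up to 65.

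Most full runs were several-fold denser than the 5 Mb on either side of them. Runs were picked from these same counts as windows of 10 or more, and a run ends where a window holds fewer. Much of any excess over the flanks, and part of any lack of overlap, is therefore built in. The full run from 97 to 103 Mb, at 25.3 per Mb, followed 5 Mb with 3.4 per Mb and preceded 5 Mb with 5.8 per Mb, 7.45 and 4.37 times less. Its windows held 13 to 39 intervals and those flanks 0 to 10. The sparse ground before it was long: from 76 to 97 Mb there were 75 intervals, or 3.57 per Mb.

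The run from 72 to 76 Mb, at 19.5 per Mb, stood 9.75 times above the 2 per Mb of the 5 Mb before it and 3.05 times above the 5 Mb after it. On the short arm, the run from 4 to 8 Mb had 13.75 per Mb, 7.86 times the 1.75 per Mb before it and 8.59 times the 1.6 per Mb after it. The run from 142 to 145 Mb, at 19.3 per Mb, was 2.54 times denser than the 5 Mb before it, whose windows overlapped with its own (4 to 14 intervals), and 5.37 times denser than the 5 Mb after it. The smallest excesses were 1.51 times over the 5 Mb after the run from 150 to 153 Mb and 1.75 times over the 5 Mb before the run from 155 to 159 Mb, flanks that take in part or all of the other run. Over 13 such flanks the run was denser than 12, with a median ratio of 5.19, and its windows did not overlap with those of 9. The exception was the run from 64 to 67 Mb, whose flank reaches back to the centromere and was the denser. These flanks are not all separate ground. The stretches from 67 to 72 and from 145 to 150 Mb each served as flank to the runs on both sides.

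More intervals lay at the long-arm end than at the short-arm end, by a factor that depended on how far in the count went. Within 5 Mb there were 22 counted from the start of the short arm and 91 counted back from the last interval of the long arm, a ratio of 4.14. Within 4 Mb there were 7 and 88, a ratio of 12.6, since the full run of the short arm begins at 4 Mb.

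Besides the centromeric stretch, 20 stretches of at least 1 Mb held no interval, 7 on the short arm and 13 on the long arm. They added up to 10.6 Mb on the short arm and 20.2 Mb on the long arm. The longest ran from 124416587 to 127225457 (2.81 Mb), from 66451091 to 68527358 (2.08 Mb), from 7951728 to 9766089 (1.81 Mb) and from 36405439 to 38199563 (1.79 Mb). A few stretches began directly behind full ground. The one from 102790433 to 104466649 (1.68 Mb) had 45 intervals in the 1 Mb before it and 14 in the 1 Mb after it. That from 144527522 to 145694368 (1.17 Mb) had 41 before and 2 after, and the one from 66451091 had 17 before and 2 after. For comparison, the median over all flanks of the long-arm stretches was 4.5 intervals per 1 Mb.

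At the scale of kilobases chromosome 7 was less clustered than the list as a whole. Its 59 clusters of 3 or more held 395 intervals (29.2%), against 45.1% of intervals over all chromosomes, and 700 intervals (51.8%) stood alone at this linking distance. Without the 184 intervals beside the centromeric stretch the clustered share was 18.9%, 221 of 1167. There it was 10.2% on the short arm and 23.4% on the long arm, while beside the stretch 174 of 184 were clustered (94.6%). With all places pooled, cluster size went with little change in width. Lone intervals had a median of 535 bp and pairs 564 bp. The median was 576 bp in clusters of 3 to 4, 591 bp in clusters of 5 to 9 and 552 bp in larger ones. Among the larger clusters, medians were 618 to 802 bp away from the centromeric stretch and 388 to 1087 bp beside it.

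Clusters of 10 or more numbered 9 and held 191 intervals (14.1%), against 27.8% over all chromosomes. Of these 9, 5 lay within 1 Mb of the centromeric stretch and held 128 of the 191 intervals. The largest of all, chr7:57924022-58053446, held 51 intervals with a median width of 388 bp that covered 16.9% of its 129 kb. It reached the very edge of the empty stretch and included the 16 intervals that fall in neither arm. Those on the other side were chr7:61073183-61110386 (10 intervals), chr7:61733737-61762156 (12), chr7:61779406-61842128 (29) and chr7:61967152-62034858 (26). The last of these was followed by 0 intervals in the next 500 kb.

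Widths were not alike among these neighbours. The clusters from 61733737 and from 61779406 had median widths of 1087 and 739 bp and covered 48.5% and 40.7% of their length. The clusters from 57924022 and from 61967152 had medians of 388 and 390 bp and covered 16.9% and 24.7%. Median width thus differed more than 2-fold between clusters on the same side of the stretch, although the widest interval of the chromosome lay in the cluster with the median of 390 bp.

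The other 4 large clusters all lay on the long arm, in 3 places. The first was chr7:102123774-102184263, with 12 intervals and a median width of 761.5 bp. With 3 smaller clusters behind it, it formed a stretch of 205 kb up to 102329090 that held 33 intervals, or 161 per Mb. This stretch lay inside the fullest window of the arm after that at the centromere.

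The second place held chr7:143890846-144004657 (23 intervals, median width 618 bp) and chr7:144044695-144074376 (11 intervals, median width 802 bp). Together with those between them they made 36 intervals in 184 kb. Its surroundings were thin, with 3 intervals in the 500 kb before it and 2 in the 500 kb after it. The third place was chr7:152074094-152113805, where 17 intervals covered 41.7% of 39.7 kb, with 6 intervals in the 500 kb before it and 2 in the 500 kb after it. Around the stretch near 102 Mb there were 9 intervals in the 500 kb before it and 5 in the 500 kb after it. All 3 places lay within full runs of 1 Mb windows, but their own intervals count towards those windows. They were 33 of the 39 from 102 to 103 Mb and 17 of the 20 from 152 to 153 Mb. The 36 near 144 Mb were among the 28 and 16 of the windows from 143 to 145 Mb. Lying in a full run is thus in part built in.

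The 10 widest intervals showed the same places again. The widest, chr7:61967152-61973359, measured 6207 bp, opened the last cluster on the long-arm side of the centromere and was the only one of 5 kb or more on the chromosome. It ranked 40 among the 21139 intervals of the 23 chromosomes. The second, chr7:100607407-100610549, measured 3142 bp and lay in a cluster of 4 within the full part from 97 to 103 Mb. The next were chr7:61754284-61757399 (3115 bp) and chr7:61779887-61782840 (2953 bp), both in large clusters beside the centromere.

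The widest of the short arm was chr7:44150009-44152899 (2890 bp), in a cluster of 5 that ran from 44147816 to 44163834 and had a median width of 1040 bp. It was followed by chr7:152103035-152105908 (2873 bp) and chr7:143978885-143981454 (2569 bp), in the places near 152 and 144 Mb named above. The last were chr7:57887075-57889432 (2357 bp), chr7:144061223-144063524 (2301 bp) and chr7:57552625-57554679 (2054 bp), the last equal in width to chr7:75702354-75704408, which stood in a pair. Of the 10, 5 lay within 1 Mb of the centromeric stretch and 9 in clusters of 5 or more. Of all 1351 intervals, 13.6% lay within 1 Mb of that stretch, 83 were in clusters of 5 to 9 and 191 in larger ones. Several abutted their neighbours, with gaps of 3 bp after the ones from 144061223 and 57552625 and 20 bp after the one from 100607407, so the division of a wide stretch into separate intervals affects this order.

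Set beside the other chromosomes, chromosome 7 was of middling density. In windows counted from the start of each chromosome it was less unevenly filled than most, though its own counts were far from even. It had 8.50 intervals per Mb, 10th of 23 (range 1.70 to 29.3, median 7.30), and a median width of 552 bp, 13th of 23. Its fullest 5 Mb window held 123 intervals (9.10%), the second lowest share of the 23 after chromosome 6. Longer chromosomes tend to have lower shares by their number of windows. This rank depends on where windows begin. With windows from 2.5 Mb on, the 1 from 57.5 to 62.5 Mb took in both sides of the centromeric stretch and held 182. Ranks with such windows are not given here. In windows from the start, the variance of chromosome 7's 5 Mb counts was 19.5 times their mean, 19th of 23. The sides of its longest empty stretch had 8.12 and 8.98 intervals per Mb, a ratio of 1.11. Among the 18 chromosomes with at least 10 Mb on both sides of such a stretch the ratio ranged from 1.06 to 26.7, with a median of 2.07, and chromosome 7 was 16th. These stretches need not be centromeres on the other chromosomes.

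Chromosomes 11 and 13 had similar densities of 10.1 and 10.5 per Mb. With all ground counted, they were close to chromosome 7 in the share of intervals in clusters of 3 or more. They had smaller shares in large clusters and beside their empty stretches. Clusters of 3 or more held 31.6% and 27.6% of their intervals, and 47.9% and 50.6% stood alone. Clusters of 10 or more held 7.13% on chromosome 11 and 1.18% on chromosome 13, against 14.1% on chromosome 7. Both comparisons rest on the ground beside the centromeric stretch of chromosome 7. That ground held 128 of its 191 intervals in clusters of 10 or more. Without it, 18.9% of the chromosome 7 intervals were in clusters of 3 or more, below chromosomes 11 and 13 with all their ground. The share within 1 Mb of the longest empty stretch was 1.10% on chromosome 11 and 0.987% on chromosome 13, against 13.6% on chromosome 7. That share was the second highest of the 23, behind 20.4% on chromosome 1. On chromosomes 9 and 12 it was 13.01% and 11.6%, and the median over the 23 was 1.60%. Since the longest empty stretch need not be a centromere on other chromosomes, this ranking can set ground beside a centromere against other ground. None of these differences was tested, as each chromosome gives a single value from the pooled list.

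**Figure D4:**
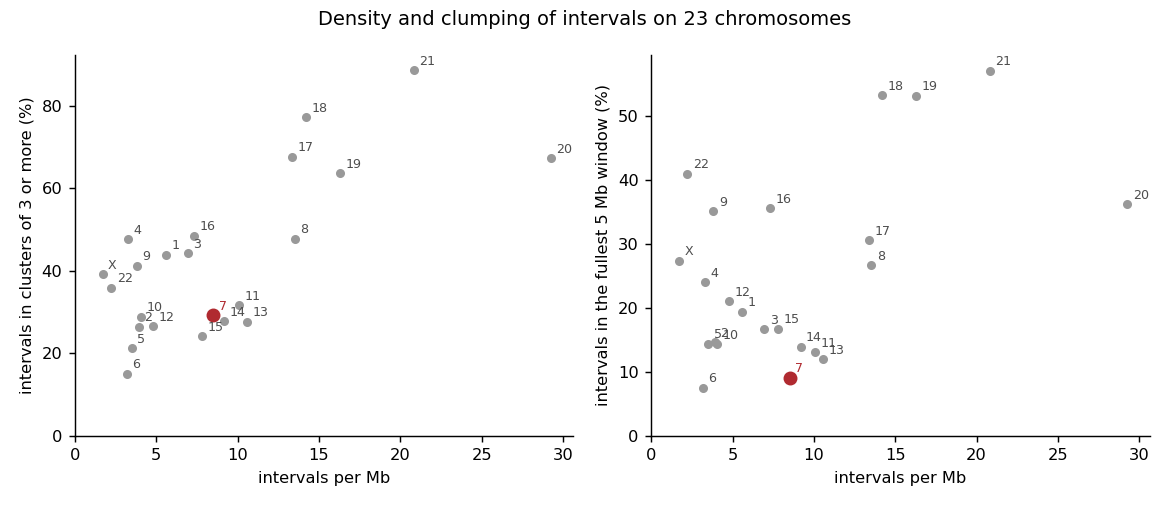
Each point is 1 of 23 chromosomes, placed by its intervals per Mb (horizontal axes) and by the percentage of its intervals in clusters of 3 or more (left) or in its fullest 5 Mb window (right), with chromosome 7 in red. Chromosome 7 sits at 8.50 per Mb with 29.2% clustered and 9.10% in the fullest window. It lies beside chromosomes 11, 13, 14 and 15 on the left and below them on the right, where windows were counted from each chromosome's start.

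Width went with count over most 5 Mb windows, but not in the ground beside the centromere, and the counts of neighbouring windows were weakly alike. Over the 32 windows of 5 Mb, the count and the median width of a window gave Pearson's r as 0.33 and Spearman's rho as 0.50. The fullest window, from 60 to 65 Mb, had a median width of 468 bp and that from 55 to 60 Mb had 483 bp, both below the 552 bp of the chromosome. Without these windows, an exclusion chosen after seeing the data, r was 0.62 and rho 0.68 over 30 windows. Counts of adjacent 1 Mb windows gave r as 0.32 and rho as 0.36 over 154 pairs. These are descriptions only: the windows come from the same libraries, share their depth, and pairs of neighbours share windows.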

How the data were processed

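GATA4 occupancy was measured by CUT&RUN in 4 libraries of 1 group, numbered 1 to 4, each from 500000 cells and 10 ug of antibody per the labels' protocols; whether these were separate cultures is not labelled. Per the submitters' processing notes, SEACR and HOMER were used with build hg19; their versions and parameters, and the rule for a common peak, are not given in the sources used. The deposited values are interval positions in bp, with no score, signal or count, and whether starts are counted from 0 or 1 is not stated. Depth is unknown and limits any reading of empty ground.

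Intervals were sorted, assigned to 1 Mb and 5 Mb windows by their start, and linked into clusters at 12.5 kb or less (Python 3.11.15, numpy 2.4.6, pandas 2.3.3, scipy 1.17.1, matplotlib 3.10.9). Counting was tested on simulated intervals. Density is the number of intervals over the distance from first start to last end. Other chromosomes were the 21 other autosomes and X. Named were the 10 widest intervals, clusters of 10 or more, the 5 longest empty stretches, the 10 fullest 1 Mb windows and the 5 largest 5 Mb steps. Other stretches, the narrow intervals and the compared parts were picked after their values were seen. The members and lists were chosen with earlier results of these data known. The planned promoter, motif and gene results need an hg19 annotation or sequence and were not run; gene names follow the RefSeq table of GRCh38.p14. No test was made, as 1 pooled list has no replicate values.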

Additional observations from a re-analysis of the deposited data

How the results depend on the processing

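Of 33 recomputed values, 27 stayed within 1.5 times (counts) or within the 95% binomial interval of the value in the report (ratios and medians), 6 moved further and 0 reversed. The long arm was denser under all 6 alternatives, by 1.04 times without clusters of 10 or more and by up to 1.17 times otherwise; such intervals cover counting error only. Keeping intervals at or above the list's median width left 196 on the short and 404 on the long arm, since fewer were counted. Clusters of 3 or more numbered 91 with a linking distance of 25 kb. Clusters of 10 or more, 9 in the report, numbered 4 after merging intervals within 1 kb and 4 without 1 Mb on either side of the centromeric stretch, an alternative chosen after seeing the data. The largest 5 Mb step, 89 in the report, was 159 with windows from 2.5 Mb on, where 1 window takes in both sides of that stretch, and 76 without those sides. No library could be left out, since the list pools them, and alternatives on promoters and motifs were not run. No paired analysis was possible because there is 1 group and the list keeps no libraries apart.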
